A study of Mus musculus with 12 samples.

Results

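The genes described here are the 4 through which joint stromal cells feed or restrain osteoclasts: Tnfsf11, Tnfrsf11b, Csf1 and Il34. They were picked by their symbols from the 27998 genes of the count matrices, where each symbol occurs in 1 row, and they were measured in mouse hind limb joints by single-cell RNA sequencing (scRNA-seq). The study took C57BL/6 wild-type male mice of 8 to 10 weeks and induced serum transfer-induced arthritis (STIA) with 100 µl of K/BxN serum given intravenously, which causes a joint inflammation that subsides by itself. The labels name 4 stages, namely rest on day 0, peak between days 7 and 9, resolving (taken on day 15) and resolved (taken on day 22), with 3 libraries per label and the joints of 3 animals pooled in each, so that n counts pools and never single animals. Digested joints were sorted for live CD45-negative cells, which removes most blood-derived cells, and captured with the 10x Genomics 3′ version 2 chemistry, which counts unique molecular identifiers (UMIs), the tags of single captured RNA molecules.

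Osteoclasts, the cells that resorb bone, form from monocyte-macrophage precursors that receive signals from the stroma around them. Tnfsf11 encodes RANKL, which binds the receptor RANK (Tnfrsf11a) on the precursors and drives their differentiation. Tnfrsf11b encodes osteoprotegerin, a secreted decoy receptor that holds RANKL away from RANK. Csf1 encodes macrophage colony-stimulating factor and Il34 encodes interleukin 34, and both ligands keep the precursors alive through the same receptor, CSF1R. In arthritic joints, synovial fibroblasts and bone-lining cells are the stromal cells best known for RANKL, and the balance of RANKL and osteoprotegerin bears on bone erosion.

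In the 20060 cells kept of 21042 deposited, clustering without the 4 genes gave 28 clusters, which took cell type names from marker genes and are called "-like" for that reason. There were 11411 fibroblast-like cells in 11 clusters, 2964 tenocyte-like, 1769 vascular endothelial-like, 1377 osteoblast-like, 677 proliferating, 655 perivascular-like and 314 chondrocyte-like cells, and smaller classes of muscle-like, lymphatic endothelial-like, Schwann-like, immune-like and erythroid-like cells. The marker limits behind these names were chosen with the clusters in view. Total UMIs ran from 7468914 to 16566202 per library, the median deposited cell held 5358 UMIs in each of the libraries, and no cell barcode occurred in more than 1 library.

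The libraries did not group by their labels. Each barcode carries a library number from 1 to 12, here called the suffix, and the libraries labelled rest 1, peak 1 and resolving 1 hold suffixes 1 to 3, resolved 1, rest 2 and peak 2 hold 4 to 6, resolving 2, resolved 2 and rest 3 hold 7 to 9, and peak 3, resolving 3 and resolved 3 hold 10 to 12. Over all genes, 12 of 12 libraries correlated best with a library of the same run of 3 suffixes, and 0 of 12 with a library of the same label. What the runs stand for is not given in the sources used here, so labels and runs are both reported below and no stage is read into a run. Whether each label belongs to the library that carries it could not be settled from the files, and the values by stage hold only as far as the labels do.

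Values are CPM, the UMIs of a gene scaled to a fixed total of all UMIs in the same cells of a library, given as mean ± SD over libraries that held at least 10 such cells. Levels are compared between cell types for 1 gene at a time and not between genes, since 3′ tags of different genes are not captured alike. A test was called past the threshold where the adjusted p was under 0.05 and the change exceeded 0.5 on the log2 scale, up or down, in edgeR's quasi-likelihood test on UMI sums with Benjamini-Hochberg adjustment over all genes tested.

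**Figure D1:**
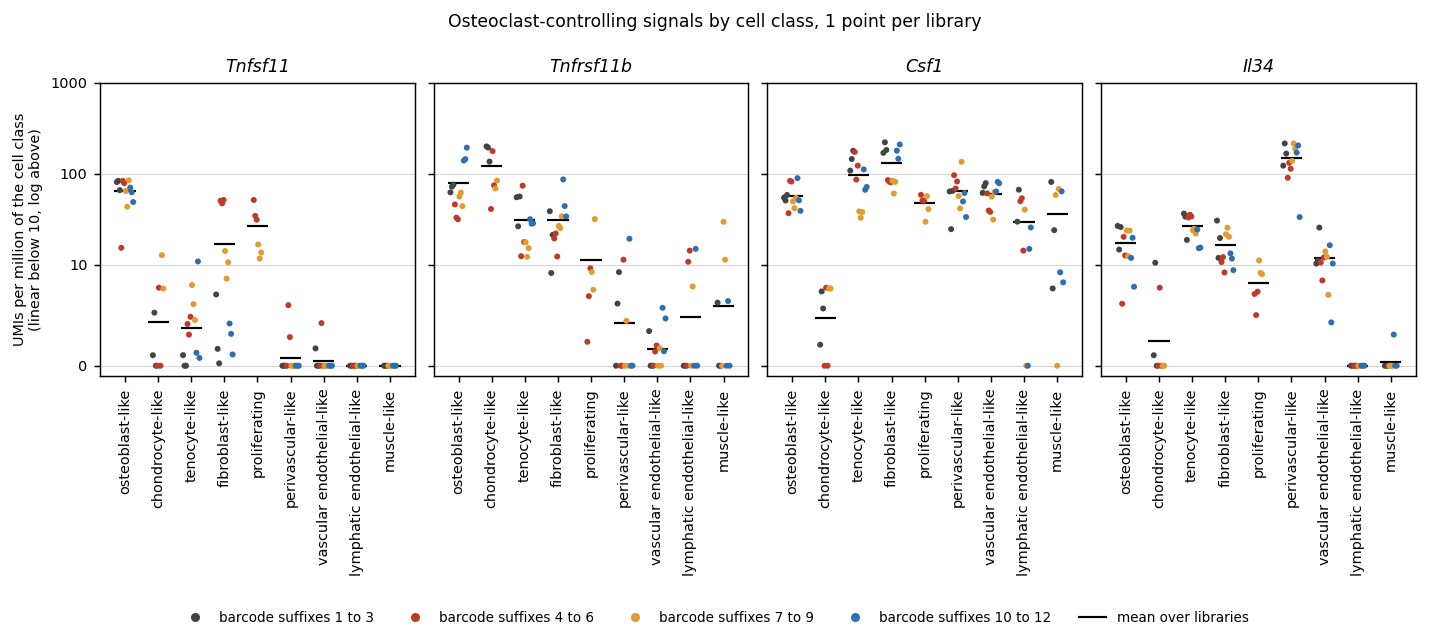
Each point is 1 library's CPM in a cell class for Tnfsf11, Tnfrsf11b, Csf1 and Il34, coloured by barcode suffix run, on an axis that is linear below 10 and logarithmic above, and the bar is the mean over libraries. Tnfsf11 has its highest mean in osteoblast-like cells (65.3), Tnfrsf11b in chondrocyte-like cells (122), Csf1 in fibroblast-like cells (132) and Il34 in perivascular-like cells (149).

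Tnfsf11 (ENSMUSG00000022015) lies on the minus strand of chr14:78277445-78308043 (GRCm38, GENCODE M21) and overlaps no other gene. It was highest in osteoblast-like cells, with 15.3 CPM in the lowest library, a median of 68.1 and 84.7 in the highest, and a mean of 65.3 ± 20.8 (SD, n = 12). Fibroblast-like cells had 0.237, 7.84 and 51.5 CPM in the lowest, median and highest library. The ranges of the 2 classes therefore overlapped, but within a library the osteoblast-like cells were the higher in 11 of 12. The difference was 2.64 on the log2 scale (SE 0.29, adjusted p = 1.51e-12). The exception was the library labelled resolved 1, where the lowest value rested on 5 UMIs.

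By the share of cells with at least 1 UMI, Tnfsf11 was found in 20.5% of osteoblast-like cells (95% Wilson interval 18.4 to 22.7) and in 5.7% of fibroblast-like cells (5.29 to 6.14). In vascular endothelial-like cells the share was 0.226% (0.088 to 0.58). The median UMIs per cell were 5265, 5555 and 3176 in these classes, and after thinning each cell to 2000 UMIs the shares were 9.05%, 2.18% and 0.191%. The order of the classes was the same before and after thinning. Intervals and limits here cover counting error only.

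Proliferating cells had 11.7, 24 and 51.5 CPM in the lowest, median and highest of 6 libraries, of suffixes 4 to 9 alone, and lay above the fibroblast-like cells of the same library in 4 of them. The difference was not past the threshold (0.23 on the log2 scale, SE 0.36, adjusted p = 0.669), but it was when the Cxcl5-led fibroblast-like cluster described below was left out (1.52, adjusted p = 3.35e-05). Tenocyte-like cells were lower than fibroblast-like cells (mean 3.72 ± 3.39 CPM, log2 fold change -1.17, SE 0.38, adjusted p = 0.0206), a call that was lost without the library labelled peak 2 (-0.93, adjusted p = 0.0985) or rest 2 (-0.94, adjusted p = 0.0939) and without the same Cxcl5-led cluster (-0.33, adjusted p = 0.561). Perivascular-like cells held 3 Tnfsf11 UMIs and vascular endothelial-like cells 4, with log2 fold changes of -4.05 (SE 0.98, adjusted p = 0.000401) and -4.53 (SE 0.78, adjusted p = 5.96e-07). Lymphatic endothelial-like cells held 0, where the fibroblast-like level of the same libraries would give 15.3, which at a floor of 3 counts over the class puts Tnfsf11 at least 5.09-fold lower (adjusted p = 0.0202). Muscle-like cells also held 0, where that level would give 8.07, and their test was not past the threshold (adjusted p = 0.0754).

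The 250 bases before the Tnfsf11 start site (chr14:78308044-78308293, minus strand, GRCm38.p6, from RefSeq) are shown because this gene differed between the cell types and between the libraries, and because its promoter and that of Csf1, printed below, can then be read side by side. Capitals mark TTTATA, the reverse complement of TATAAA, the core of a TATA box, which was searched on both strands and found in 12.4% of the 32851 promoters in the table.
Tnfsf11 promoter: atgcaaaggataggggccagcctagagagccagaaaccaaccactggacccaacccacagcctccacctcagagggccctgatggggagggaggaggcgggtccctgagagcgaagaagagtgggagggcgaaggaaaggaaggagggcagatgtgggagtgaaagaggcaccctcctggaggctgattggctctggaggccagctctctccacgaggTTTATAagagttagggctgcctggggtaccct
The letters TGACTCA, the consensus of AP-1, were searched on both strands in the same way and did not occur in the window, as in most promoters, since 4.46% hold them.

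Among fibroblast-like cells, Tnfsf11 was concentrated in the cluster whose leading genes were Cxcl5 and Sfrp1. In the 6 libraries with enough of its cells, this cluster had 32.9, 73.7 and 88.9 CPM in the lowest, median and highest, a range that overlapped with that of osteoblast-like cells. It made up 6.07% of all kept cells and held 43% of all Tnfsf11 UMIs (991 of 2307). The share of its cells with a Tnfsf11 UMI was 36.9% (34.2 to 39.6), and 12.4% after thinning, at a median of 10909 UMIs per cell. Tnfsf11 is itself among the 10 leading genes of the cluster, which is a description and not a test, although the gene was kept out of the clustering. The cells carried few osteoblast marker UMIs, with 51 CPM summed over 7 markers against 24664 in osteoblast-like cells.

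The remaining fibroblast-like clusters fell off from there, with 29.5 ± 24.2 CPM of Tnfsf11 in the cluster led by Gjb5 and Col5a3 (n = 6), 17.6 ± 21.1 in that led by Cytl1 and Clu (n = 11), 11 ± 8.01 in that led by Nppc and Egfl6 and 9.68 ± 3.34 in that led by Hp and Mmp11 (n = 6). Neighbours in this order after the Cxcl5-led cluster differed by less than the larger of their SDs. The lining-like cluster, named for markers such as Prg4 of the cells that face the joint cavity, held 9 Tnfsf11 UMIs in 1089 cells (mean 1.19 ± 1.52 CPM, n = 12). The sublining-like cluster, named for markers such as Dpp4 and Pi16 of the deeper tissue, held 0 UMIs in 1405 cells, which allows a share of cells with a UMI of up to 0.214% and sets no limit on cells that express the gene. At the level of all fibroblast-like cells of the same libraries, 53.6 UMIs would have been counted, which at a floor of 3 counts puts the sublining-like cells at least 17.9-fold lower. Tnfsf11 did not pass the filter on low counts in the test of the subsets.

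**Figure D2:**
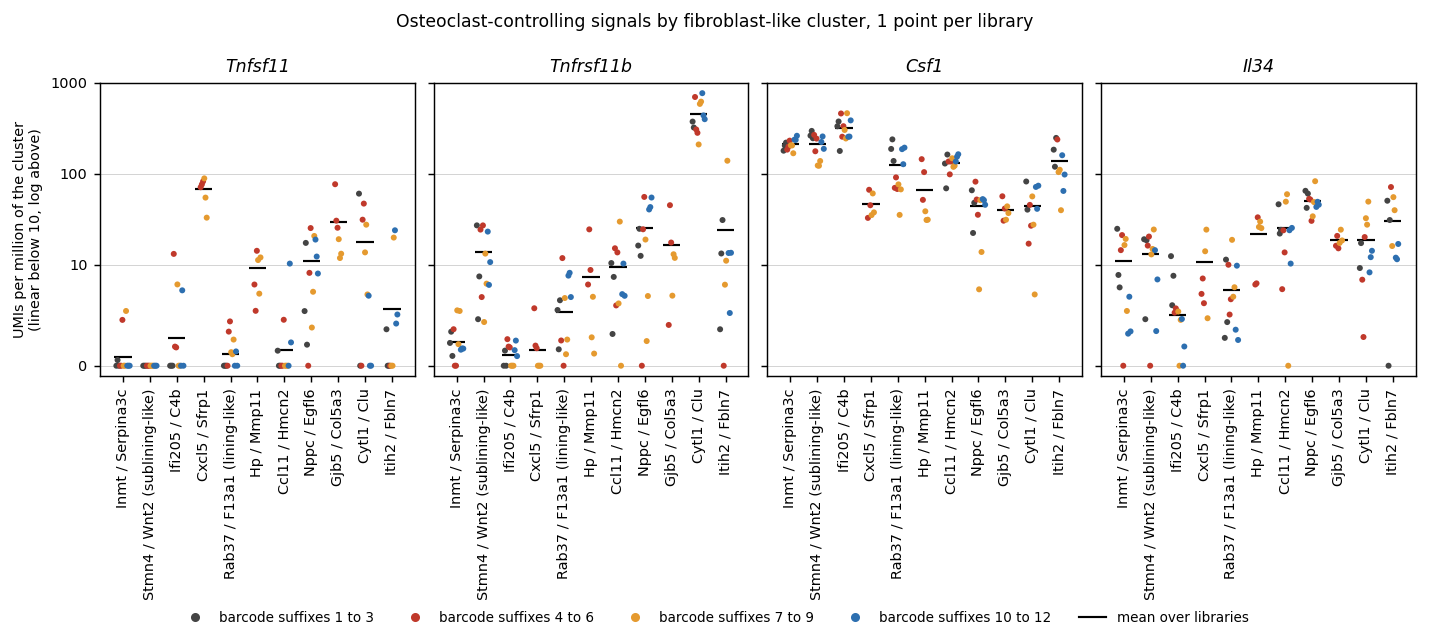
Each point is 1 library's CPM in 1 of the 11 fibroblast-like clusters, named by its 2 leading genes and coloured by barcode suffix run, on an axis that is linear below 10 and logarithmic above, with bars for the mean over libraries. Tnfsf11 peaks in the Cxcl5-led cluster (67.7), Tnfrsf11b in the Cytl1-led cluster (455), Csf1 in the Ifi205-led cluster (320) and Il34 in the Nppc-led cluster (50.5).

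Tnfrsf11b (ENSMUSG00000063727), the decoy receptor, lies on the minus strand of chr15:54250619-54278484 and overlaps no other gene. It was highest in chondrocyte-like cells, with 41, 110 and 200 CPM in the lowest, median and highest of the 8 libraries with enough of these cells, and a mean of 122 ± 62.8. All 8 lay above the fibroblast-like cells of the same library (log2 fold change 2.55, SE 0.24, adjusted p = 2.5e-16). Osteoblast-like cells had 31.6, 62.3 and 193 CPM and were higher than fibroblast-like cells in 12 of 12 libraries (log2 fold change 1.25, SE 0.19, adjusted p = 5.97e-08). Chondrocyte-like and osteoblast-like cells overlapped in level, and their means differed by less than the larger SD.

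In fibroblast-like cells as a whole Tnfrsf11b ran from 9.17 through a median of 26 to 86.6 CPM. Tenocyte-like cells had a like mean of 31.3 ± 20 CPM, and their difference from fibroblast-like cells (log2 fold change -0.07, SE 0.20, adjusted p = 0.876) was not past the threshold. Both endothelial classes, perivascular-like, muscle-like and proliferating cells were lower than fibroblast-like cells, with log2 fold changes from -4.12 (vascular endothelial-like, SE 0.40, adjusted p = 3.41e-16) to -1.42 (proliferating, SE 0.35, adjusted p = 0.00083). Vascular endothelial-like cells had 18 Tnfrsf11b UMIs in 0.735% of 1769 cells, against 47.1% of chondrocyte-like cells (41.7 to 52.7) and 5.65% of fibroblast-like cells (5.24 to 6.09). Thinned to 2000 UMIs, the shares were 0.383%, 17.8% and 2.95%, and the median UMIs per cell before thinning were 3176, 12499 and 5555.

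A single cluster, named fibroblast-like at the settings used here, carried most of the Tnfrsf11b UMIs of that class. The cluster led by Cytl1 and Clu had 210, 398 and 769 CPM in the lowest, median and highest of 11 libraries (mean 455 ± 185), above every other fibroblast-like cluster, of which the next was the Nppc-led cluster at 25 ± 19.3. It held 1810 of the 4341 Tnfrsf11b UMIs (41.7%) in 2.95% of the cells, and 46.5% of its 592 cells had a UMI (42.5 to 50.5), or 31.2% after thinning. The chondrocyte markers summed to 1748 CPM in this cluster, 319 in all fibroblast-like cells and 52224 in chondrocyte-like cells. In the same order of cells, the tenocyte markers summed to 4151, 1290 and 1825 CPM and the osteoblast markers to 3751, 432 and 4279. The last value is each time that of chondrocyte-like cells and not of tenocyte-like or osteoblast-like cells. The osteoblast marker sum of osteoblast-like cells, given above with the Cxcl5-led cluster, was higher than all of these. Whether these markers bear on the Tnfrsf11b level of the Cytl1-led cluster was not tested. At the other end, Tnfrsf11b was at 1.57 ± 2.22 CPM in the Cxcl5-led cluster and 1.07 ± 1.04 in the Ifi205-led cluster, so the cluster richest in Tnfsf11 was among the poorest in its decoy.

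Because of this cluster, the contrasts of Tnfrsf11b with fibroblasts depended on whether its 592 cells were counted. Without them the fibroblast-like mean fell to 8.22 ± 2.62 CPM, the log2 fold change of osteoblast-like cells became 3.09 (SE 0.20, adjusted p = 6.49e-26) and that of chondrocyte-like cells 4.27 (SE 0.23, adjusted p = 1.74e-30). Tenocyte-like cells then had more Tnfrsf11b than fibroblast-like cells (1.80, adjusted p = 3.07e-12), and the calls for perivascular-like cells (-0.82, adjusted p = 0.194), lymphatic endothelial-like cells (-1.26, adjusted p = 0.293), muscle-like cells (-1.85, adjusted p = 0.0691) and proliferating cells (0.22, adjusted p = 0.693) were lost. Tenocyte-like cells were also the higher at Leiden resolution 0.5 and with the highest doublet scores removed, where cells were clustered and named anew. Among the 3 tenocyte-like clusters, the small one led by Fam159b and Chodl had the highest mean (143 ± 167 CPM, n = 9) and held 122 of the 468 UMIs of the class.

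Lining-like and sublining-like fibroblasts both held less Tnfrsf11b than the other fibroblast-like cells, as far as those included the Cytl1-led cluster. The lining-like cells had 0, 6 and 11.8 CPM in the lowest, median and highest library (mean 5.27 ± 3.7), the sublining-like cells 4.32, 9.76 and 27.1 (13.8 ± 8.91) and the others 11.8, 31 and 119 (40.6 ± 29.9). The lining-like cells were lower than the others in 12 of 12 libraries (log2 fold change -3.0, SE 0.23, adjusted p = 1.06e-12), the sublining-like cells in 10 of 12 (-1.89, SE 0.21, adjusted p = 8.09e-09), and the lining-like cells lower than the sublining-like in 9 of 12 (-1.11, SE 0.33, adjusted p = 0.00708). Without the Cytl1-led cluster, Tnfrsf11b did not pass the filter on low counts in this comparison. Of 9 tests of the members on the subsets 7 passed the threshold, while over all 7582 genes tested 29.7% were called for lining-like cells (12.8% higher, 16.9% lower), 17.7% for sublining-like cells (7.68% higher, 9.98% lower) and 27.3% between the subsets.

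Csf1 (ENSMUSG00000014599) lies on the minus strand of chr3:107741048-107760469 and overlaps no other gene. It was found in most classes, and 75.4% of its 12306 UMIs were in fibroblast-like cells, which had 60.6, 115 and 222 CPM in the lowest, median and highest library (mean 132 ± 58.7, n = 12). Tenocyte-like cells followed at 97.9 ± 51 CPM, and the difference was below the fold limit (log2 fold change -0.49, SE 0.17, adjusted p = 0.0333), though it exceeded that limit without the library labelled peak 2 (-0.58), resolved 1 (-0.60), resolving 1 (-0.52) or rest 2 (-0.54). Perivascular-like, vascular endothelial-like and osteoblast-like cells lay close together, at 64.9 ± 29.8, 60.5 ± 16.8 and 57.6 ± 17.8 CPM. All 3 were below fibroblast-like cells, by log2 fold changes of -1.13 (SE 0.23, adjusted p = 1.28e-05), -1.37 (SE 0.19, adjusted p = 8.03e-10) and -1.29 (SE 0.19, adjusted p = 2.33e-08).

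Chondrocyte-like cells were the exception for Csf1, with 0, 6.51 and 7.72 CPM in the lowest, median and highest of 8 libraries and 24 UMIs in all. They lay below fibroblast-like cells in 8 of 8 libraries (log2 fold change -4.62, SE 0.41, adjusted p = 1.77e-17). A Csf1 UMI was seen in 40.9% of fibroblast-like cells (40 to 41.8) and in 4.78% of chondrocyte-like cells (2.92 to 7.73), although the chondrocyte-like cells were deeper, with medians of 5555 and 12499 UMIs per cell. Thinned, the shares were 20.4% and 0.955%. The lower share was thus that of the deeper cells, and remained the lower at equal depth.

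The Csf1 promoter (chr3:107760470-107760719, minus strand, GRCm38.p6, from RefSeq, 250 bases before the start site) is shown beside that of Tnfsf11 because the pair moved in opposite directions between the suffix runs. Capitals mark GGGCGG, the GC box of Sp1, which was searched on both strands, occurs 2 times here and is found in 32.7% of promoters.
Csf1 promoter: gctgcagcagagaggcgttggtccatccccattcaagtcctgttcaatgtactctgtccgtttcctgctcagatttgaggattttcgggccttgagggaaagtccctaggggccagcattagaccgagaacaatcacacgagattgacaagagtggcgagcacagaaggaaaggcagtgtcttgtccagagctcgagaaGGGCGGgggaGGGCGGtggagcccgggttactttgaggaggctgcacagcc
A match of letters says nothing about whether a factor binds there in these cells.

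Within fibroblast-like cells Csf1 was highest in the cluster led by Ifi205 and C4b, with 178, 318 and 463 CPM in the lowest, median and highest library (mean 320 ± 88.7, n = 12). The sublining-like cluster and the cluster led by Inmt and Serpina3c followed at 212 ± 60.4 and 211 ± 27.3 CPM, which cannot be ranked against each other. The clusters with the most Tnfsf11 or Tnfrsf11b were at the low end of Csf1, at 46.3 ± 14.2 (Cxcl5-led), 44.5 ± 24.4 (Cytl1-led), 44 ± 21.2 (Nppc-led) and 40.1 ± 9.66 CPM (Gjb5-led), and these 4 differed from each other by less than their SDs. Sublining-like cells had more Csf1 than the other fibroblast-like cells in 11 of 12 libraries (log2 fold change 0.70, SE 0.12, adjusted p = 2.86e-05, and 0.45 with thinned cells, below the fold limit) and more than lining-like cells in 11 of 12 (lining-like minus sublining-like -0.77 on the log2 scale, SE 0.13, adjusted p = 1.29e-05). Lining-like cells (35.3, 109 and 239 CPM in the lowest, median and highest library) were not past the threshold against the others (-0.07, SE 0.12, adjusted p = 0.637).

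Il34 (ENSMUSG00000031750) lies on the minus strand of chr8:110741829-110805924. The annotation places 2 antisense genes, Gm15894 and Gm15895, within it on the plus strand. Perivascular-like cells, the mural cells around vessels, had 33.4, 153 and 215 CPM in the lowest, median and highest library (mean 149 ± 55.1, n = 12), and the lowest value, in the library labelled resolved 3, rested on 4 UMIs. They exceeded fibroblast-like cells in 12 of 12 libraries (log2 fold change 2.98, SE 0.16, adjusted p = 6.27e-30). They made up 3.27% of the cells and held 19.1% of the Il34 UMIs.

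The share of perivascular-like cells with an Il34 UMI was 44.6% (40.8 to 48.4), against 7.85% of fibroblast-like cells (7.37 to 8.36) and 3.17% of vascular endothelial-like cells (2.45 to 4.09), at medians of 3882, 5555 and 3176 UMIs per cell. After thinning, the shares were 27.1%, 2.9% and 1.6%. Tenocyte-like cells had more Il34 than fibroblast-like cells in 10 of 12 libraries (26.4 ± 7.83 against 16.3 ± 7 CPM, log2 fold change 0.68, SE 0.15, adjusted p = 0.000391). The makeup of the tenocyte-like class differed between suffix runs. Its cluster led by Slc40a1 and Spon2 held 1303 of the 2964 cells, with 91.2% of them in suffixes 7 to 9 and 1 cell in 1 to 3. The tenocyte-like contrasts without that cluster are not given here. Osteoblast-like cells, at 17.1 ± 7.11 CPM, were not past the threshold (-0.03, SE 0.19, adjusted p = 0.937), with 7 libraries higher and 5 lower.

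Of the 2 vascular endothelial-like clusters, that led by Selp, an adhesion molecule of venules, had 20.5 ± 13.9 CPM of Il34 and that led by Timp4 had 0.477 ± 1.3, given here without a test. Lymphatic endothelial-like cells held 0 Il34 UMIs, where the fibroblast-like level of the same libraries would give 13.2, which at the floor of 3 counts puts them at least 4.39-fold lower. Chondrocyte-like cells were lower in 8 of 8 libraries (log2 fold change -2.39, SE 0.41, adjusted p = 5.69e-07). Among fibroblast-like clusters Il34 was highest in that led by Nppc and Egfl6 (50.5 ± 14.1 CPM, n = 12) and lowest in the Ifi205-led cluster (5.01 ± 3.46), the reverse of the order of these clusters for Csf1. Lining-like cells were below the other fibroblast-like cells in 12 of 12 libraries (7.45 ± 4.61 CPM, log2 fold change -1.37, SE 0.23, adjusted p = 7.89e-06), and sublining-like cells in 9 of 12 (13.1 ± 7.5 CPM, -0.69, SE 0.22, adjusted p = 0.0143). Between the subsets the difference was not past the threshold (-0.68, SE 0.31, adjusted p = 0.0752), though it was without the library labelled peak 1 (-0.84), resolving 2 (-0.87) or resolving 3 (-0.93).

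**Figure D3:**
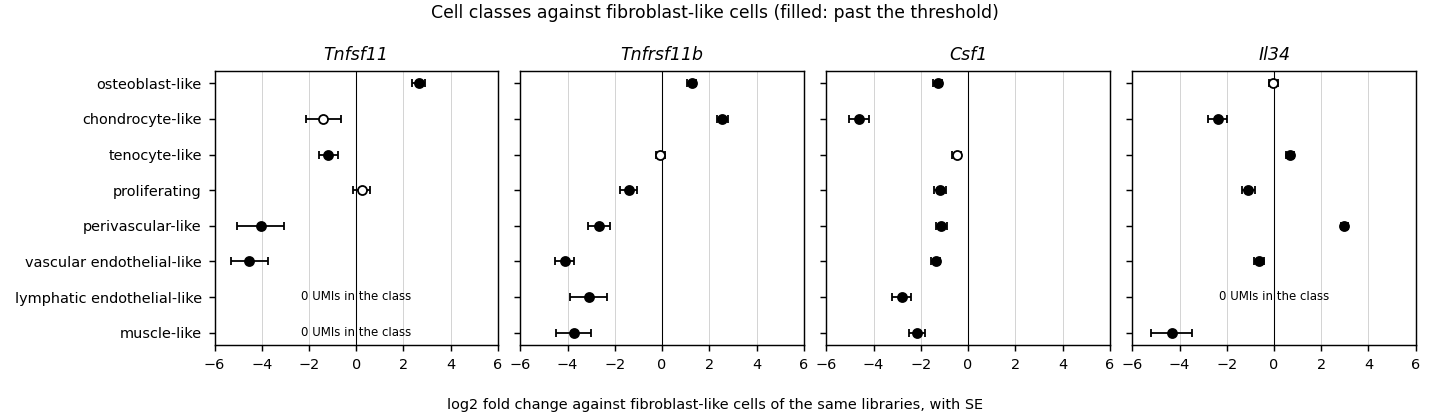
Log2 fold change of each cell class against the fibroblast-like cells of the same libraries, with its SE, for the 4 genes, and filled points mark tests past the threshold. Tnfsf11 is higher only in osteoblast-like cells (2.64), Tnfrsf11b in osteoblast-like (1.25) and chondrocyte-like cells (2.55), Il34 in perivascular-like (2.98) and tenocyte-like cells (0.68), and Csf1 is higher than in fibroblast-like cells in none of the 8 classes plotted.

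Over the 11 classes compared with fibroblast-like cells, 28 of the 44 tests of the members passed the threshold. The background was high, since of 10852 genes tested 28.8% were called in osteoblast-like cells, 46.4% in chondrocyte-like, 39.1% in perivascular-like, 13.8% in tenocyte-like, 52.7% in vascular endothelial-like, 26.2% in proliferating, 38.4% in lymphatic endothelial-like, 43.8% in muscle-like, 21.7% in immune-like, 14.4% in Schwann-like and 14.9% in erythroid-like cells. In the higher direction alone, the shares were 12.2% for osteoblast-like, 19% for chondrocyte-like, 16.2% for perivascular-like, 5.69% for tenocyte-like, 10.2% for proliferating, 4.88% for Schwann-like and 5.4% for erythroid-like cells. In the lower direction they were 16.6% for osteoblast-like, 27.3% for chondrocyte-like, 22.9% for perivascular-like, 8.07% for tenocyte-like, 26.9% for vascular endothelial-like, 15.9% for proliferating, 26.6% for lymphatic endothelial-like, 9.56% for Schwann-like and 9.54% for erythroid-like cells. For muscle-like and immune-like cells the shares in the lower direction were 28.8% and 14.1%. The median log2 fold change over all genes was -0.17 in chondrocyte-like and -0.13 in perivascular-like cells, smaller than any member difference called there. Calls in the classes with 2 or 3 libraries of 10 or more cells rest on few UMIs, and Csf1 in Schwann-like cells (-1.97, adjusted p = 0.0159) was no longer past the threshold without the library labelled peak 3 (-2.85, adjusted p = 0.0522) or rest 1 (-1.43, adjusted p = 0.195), as was Il34 in vascular endothelial-like cells (-0.65, adjusted p = 0.0049) without rest 1 (-0.44, adjusted p = 0.0691). In immune-like cells Csf1 was at 0 in both libraries tested, and its call (adjusted p = 0.000803) was lost without the library labelled peak 2 (adjusted p = 0.242).

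Of the receptors of these signals, Csf1r and Tnfrsf11a are described here. Ptprz1, a receptor of Il34 named below, was among the leading genes of the osteoblast-like cluster. Csf1r, the shared receptor of Csf1 and Il34, was seen in 47.9% of the 71 immune-like cells (36.7 to 59.3), which carried 20222 CPM summed over 7 immune markers. Tnfrsf11a, the RANK gene, was seen in 5.63% of them (2.21 to 13.6). Of the listed osteoclast markers, Oscar, Calcr and Itgb3 were at 0 in these cells. The values of the other listed markers, among them Acp5, Ctsk and Mmp9, are not given here. The named genes therefore show no trend of that list. In perivascular-like cells Tnfrsf11a had a log2 difference of 4.98 over fibroblast-like cells (SE 0.55, adjusted p = 8.72e-12), with a UMI in 2.14% of the cells against 0.0263% of fibroblast-like cells.

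Genes that act with the members were counted from lists chosen with earlier results of these data known. Of 11 receptors through which hormones and cytokines raise Tnfsf11 in stroma, 4 were higher and 6 lower in osteoblast-like than in fibroblast-like cells. The largest differences were those of Vdr (log2 fold change 3.98), the vitamin D receptor, Pth1r (3.73), the parathyroid hormone receptor, and Lifr (2.64), which were higher, and of Osmr (-1.45), the receptor of oncostatin M, which was lower. Of 4 tested factors that restrain osteoclasts, Wnt16 was higher (3.97) and Il33 (-5.48), Il18 (-1.49) and Sema3a (-1.35) were lower. Mmp14, a protease that sheds RANKL from the membrane, was higher (1.52), and Ptprz1, a receptor of Il34, was higher (6.38). All of these passed the threshold in edgeR's test, against the 28.8% of genes called in osteoblast-like cells. Mmp14 and Ptprz1 are single genes of their lists and show no trend of a list.

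Lining-like fibroblasts had low values across the promoting list. All 6 of the tested osteoclast-promoting ligands and enzymes were lower in them than in the other fibroblast-like cells, beside 16.9% of all genes, among them Wnt5a (log2 fold change -4.42), and Ptgs2 (-3.03) and Ptges (-2.80), enzymes of prostaglandin synthesis, while Sema3a, a restraining semaphorin, was higher (4.23) and Il33 lower (-3.05). The median of the list was -1.94, beside 0.01 over all 7582 genes tested. In sublining-like cells, where 9.98% of all genes were lower, 3 of the 6 were lower (Cxcl12 -2.47, Il6 -1.76, Ptges -0.64) and Il18 was higher (2.57). Of the restraining factors only single genes are named for both subsets, and they show no trend of that list.

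The 12 libraries were next compared by label and by suffix run. In fibroblast-like cells, Tnfsf11 was 7.05, 47.3 and 10.6 CPM in the libraries labelled rest 1 to 3, 1.67, 51.5 and 4.18 at peak, 0.237, 14.2 and 3.15 at resolving, and 50.5, 8.62 and 1.11 at resolved. Libraries of the same label differed several-fold, and the ranges of all 4 labels overlapped. No gene passed the threshold for any later stage against rest in fibroblast-like cells (0 of 11767 in edgeR, 0% called, with 74, 107 and 75 genes at an unadjusted p under 0.05 for peak, resolving and resolved, and at most 1 gene called by DESeq2). The log2 fold changes of Tnfsf11 were -0.22 (SE 1.36) for peak, -1.92 (SE 1.48) for resolving and -0.17 (SE 1.37) for resolved, errors that leave room for several-fold changes. With the suffix run as a block, the errors of Tnfsf11 were smaller and its values were -0.20 (SE 0.50), -0.30 (SE 0.56) and -0.53 (SE 0.47), and none of the 4 genes passed for any stage in either class.

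In osteoblast-like cells Tnfsf11 was 81.1, 83.5 and 84.7 CPM in the libraries labelled rest, 83.5, 78.9 and 70.3 at peak, 66, 64.8 and 62.6 at resolving, and 15.3, 43.5 and 48.9 at resolved. The resolved libraries were the lowest and did not overlap with rest, with a log2 difference of -1.13 (SE 0.27, unadjusted p = 0.000526). Over the 6377 genes tested this was not past the threshold (adjusted p = 1), and it rested in part on the 5 UMIs of resolved 1. Il34 was also lower in the resolved libraries, at 6.14, 12.4 and 7.82 CPM against 26.7, 20.2 and 23.7 at rest (-1.37, SE 0.36, unadjusted p = 0.00148, adjusted p = 1). No member and no other gene was called for a stage in osteoblast-like cells (0%, with 172, 131 and 165 genes at an unadjusted p under 0.05), nor for a stage effect that differed between the classes (0%, with 292, 291 and 354).

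**Figure D4:**
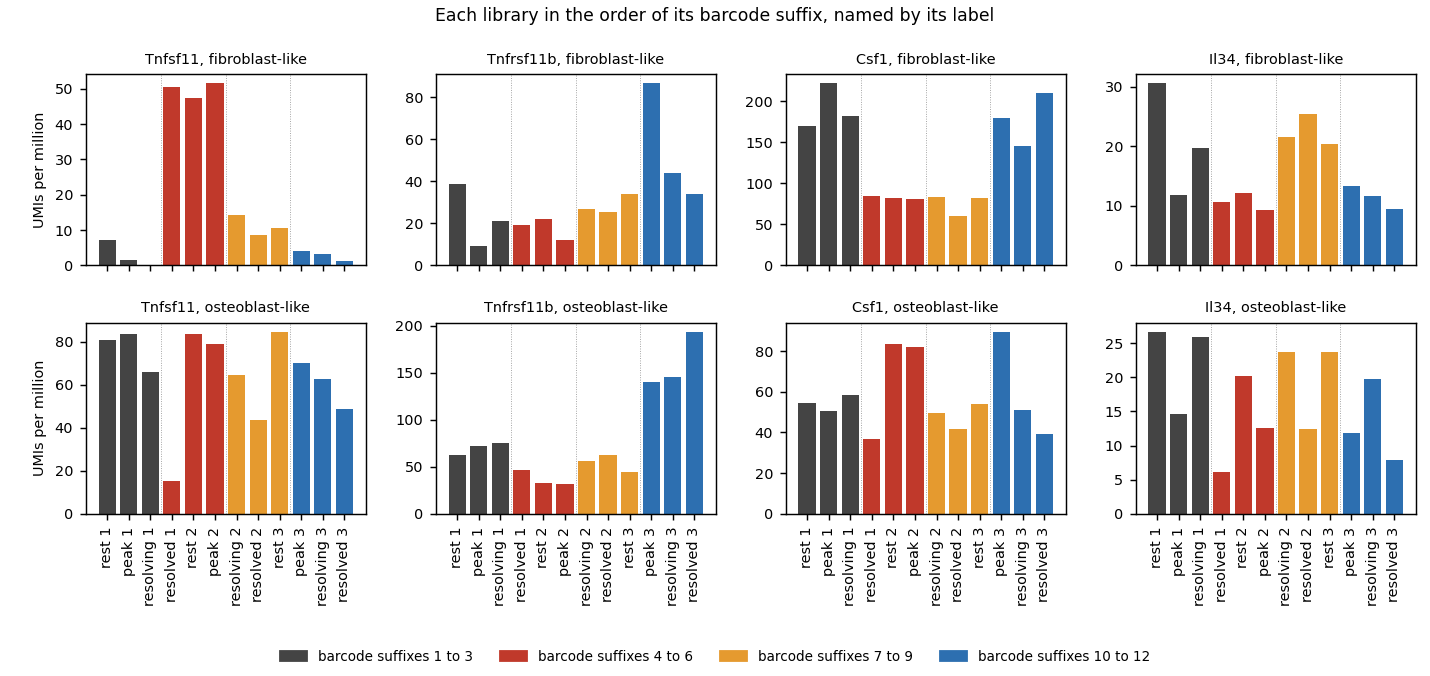
CPM of each gene in fibroblast-like cells (top) and osteoblast-like cells (bottom) of each library, in the order of the barcode suffix and named by its label, with bars starting at 0 and coloured by suffix run. In fibroblast-like cells Tnfsf11 stands at 47.3 to 51.5 in suffixes 4 to 6 and at no more than 14.2 elsewhere, while in osteoblast-like cells it shows no such step.

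By suffix run, the same Tnfsf11 values of fibroblast-like cells fell into separate ranges. Suffixes 1 to 3 had 7.05, 1.67 and 0.237 CPM, suffixes 4 to 6 had 50.5, 47.3 and 51.5, suffixes 7 to 9 had 14.2, 8.62 and 10.6, and suffixes 10 to 12 had 4.18, 3.15 and 1.11. Suffixes 4 to 6 and 7 to 9 did not overlap with 1 to 3, whereas 10 to 12 did. Against suffixes 1 to 3 the log2 fold changes were 4.02 (SE 0.44, adjusted p = 8.6e-06), 1.77 (SE 0.51, adjusted p = 0.0207) and -0.02 (SE 0.61), respectively. The call for 7 to 9 was lost without the library labelled peak 1 (1.5, adjusted p = 0.0632), resolving 1 (1.30, adjusted p = 0.0503) or resolving 2 (1.53, adjusted p = 0.0706), under DESeq2 (1.92, adjusted p = 0.0642) and with cells thinned to 2000 UMIs (1.37, adjusted p = 0.0798), while that for 4 to 6 was past the threshold with thinned cells (3.73, adjusted p = 1.75e-06).

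Csf1 moved the other way. It was 170, 222 and 182 CPM in suffixes 1 to 3, 85.1, 81.7 and 80.7 in 4 to 6, 83.8, 60.6 and 81.5 in 7 to 9 and 179, 146 and 210 in 10 to 12. The middle runs were both lower than suffixes 1 to 3 without overlap (log2 fold change -1.14, SE 0.17, adjusted p = 0.000105 and -1.35, SE 0.17, adjusted p = 8.63e-05), and the last run was not (-0.01). Il34 was lower in suffixes 4 to 6 (-0.88, SE 0.25, adjusted p = 0.0111), with overlapping ranges, and not past the threshold without the library labelled peak 2 (-0.76, adjusted p = 0.0521) or rest 1 (-0.48, adjusted p = 0.0939) or with thinned cells (-0.54, adjusted p = 0.217). Of the 12 member tests 5 passed the threshold, while 34.2%, 19.9% and 1.56% of all genes were called in the 3 runs.

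Tnfrsf11b in fibroblast-like cells overlapped between the runs, at 38.7, 9.17 and 21.3 CPM in suffixes 1 to 3, 19.4, 22.1 and 12.3 in 4 to 6, 26.7, 25.3 and 34.1 in 7 to 9 and 86.6, 44.1 and 34 in 10 to 12. None of its contrasts was past the threshold, the largest being 1.36 (adjusted p = 0.1) for the last run, which passed without the library labelled rest 1 (1.97, adjusted p = 0.0258). In osteoblast-like cells it was the member that varied by run: 62.4, 72.2 and 75.7 CPM in suffixes 1 to 3, 46, 32.9 and 31.6 in 4 to 6, 56.1, 62.1 and 44.1 in 7 to 9 and 140, 145 and 193 in 10 to 12. The last run was higher than suffixes 1 to 3 (log2 fold change 1.24, SE 0.17, adjusted p = 0.00281), where 0.204% of the genes were called, and this call was lost with the highest doublet scores removed (1.06, adjusted p = 0.163). No other member was called in osteoblast-like cells, in which 0.925% and 0% of genes were called for the other runs.

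The Cxcl5-led cluster was present in the same libraries as the Tnfsf11 of fibroblast-like cells. It made up 35.9% to 39.3% of fibroblast-like cells in suffixes 4 to 6, 2.81% to 4.24% in 7 to 9, 0% in 1 to 3 and at most 0.125% in 10 to 12, and it held 86.8% of the fibroblast Tnfsf11 UMIs in suffixes 4 to 6. With its cells left out, Tnfsf11 was 15.4 ± 3.55 CPM in suffixes 4 to 6 and 2.99 ± 3.59 in 1 to 3, a log2 difference of 2.29 (SE 0.54, adjusted p = 0.00742). The difference was smaller but remained past the threshold. For suffixes 7 to 9 it was not (1.27, adjusted p = 0.113). Csf1 without the cluster was 77.7 ± 14.9 CPM in 7 to 9 against 191 ± 27 in 1 to 3 and stayed past the threshold, and it fell short in 4 to 6 (-0.53, adjusted p = 0.0637), as did Il34 (-0.41, adjusted p = 0.281). Median UMIs per fibroblast-like cell were 5384 to 5535, 5893 to 6248, 4154 to 5149 and 5703 to 6224 in the 4 runs. Osteoblast markers summed to 327 to 751, 94.6 to 132, 213 to 504 and 381 to 998 CPM, and their part in these results was not tested.

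The run differences of Tnfsf11 were not shared by osteoblast-like cells. There Tnfsf11 was 66 to 83.5 CPM in suffixes 1 to 3 and 15.3 to 83.5 in 4 to 6, and the test of the interaction of run and cell class gave -4.36 on the log2 scale for suffixes 4 to 6 (SE 0.49, adjusted p = 1.68e-06), where 7.6% of genes were called, and -2.04 for 7 to 9 (SE 0.52, adjusted p = 0.0317), where 2.65% were. Csf1 differed in the opposite sense (1.46, SE 0.32, adjusted p = 0.00434 and 1.25, SE 0.32, adjusted p = 0.0344). For suffixes 7 to 9 both calls rested on single libraries: that of Tnfsf11 was lost without the library labelled peak 1 (-1.70, adjusted p = 0.12), resolved 2 (-1.98, adjusted p = 0.119), resolving 1 (-1.64, adjusted p = 0.0761) or resolving 2 (-1.85, adjusted p = 0.116), and that of Csf1 without peak 1 (1.09, adjusted p = 0.109), resolved 2 (1.18, adjusted p = 0.198), resolving 2 (1.35, adjusted p = 0.0657) or rest 3 (1.21, adjusted p = 0.108). For suffixes 4 to 6 the call of Csf1 was lost without rest 2 (1.25, adjusted p = 0.0581). With thinned cells, the interaction of Tnfsf11 in 4 to 6 was -4.21 (adjusted p = 8.56e-07), that of Tnfsf11 in 7 to 9 (-1.40, adjusted p = 0.45) and those of Csf1 (0.45, adjusted p = 0.679 and 0.90, adjusted p = 0.325) were lost, and Tnfrsf11b in 4 to 6 passed (-1.65, adjusted p = 0.0442). Without the Cxcl5-led cluster, the interaction for Tnfsf11 in 4 to 6 was -2.58 (adjusted p = 0.0188), and the other 3 were not past the threshold (-1.52, adjusted p = 0.204 for Tnfsf11, and 0.91, adjusted p = 0.252 and 1.23, adjusted p = 0.0704 for Csf1).

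In the fibroblast-like cells of suffixes 4 to 6, several of the listed genes differed as well. The sums include the Cxcl5-led cluster, and neither its part in these differences nor their bearing on Tnfsf11 was tested. Of the 11 receptors that raise Tnfsf11, 5 were higher and 1 lower than in suffixes 1 to 3, with Vdr at a log2 difference of 4.86 (SE 0.47, adjusted p = 2.84e-06), Il1r1 at 1.01, Ptger4, a prostaglandin E2 receptor, at 0.78 and Il11ra1 at -0.62. Of 9 tested promoting ligands and enzymes 4 were higher and 2 lower, with Ptgs2 at 2.78, Lif at 2.46, Il11 at 2.16 and Wnt5a at -0.70. The restraining factors Sema3a (-1.46) and Wnt16 (-1.47) were lower, and the sheddase Mmp14 was higher (1.35). These counts stand beside the 34.2% of all genes called in that run, 16.1% as higher and 18% as lower. For the restraining factors and the sheddases the number of genes tested is not given here, so the named genes show no trend of a list.

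The ratio of Tnfsf11 to Tnfrsf11b UMIs was taken as log2 of each count plus 0.5 in each library, and is used only to compare cells, since the 2 tags are not captured alike. In fibroblast-like cells it was -3.58 ± 2.02 in suffixes 1 to 3, 1.51 ± 0.49 in 4 to 6, -1.37 ± 0.41 in 7 to 9 and -4.31 ± 0.53 in 10 to 12 (SD, n = 3 each). The 3 libraries of suffixes 4 to 6 were the only ones above 0. In osteoblast-like cells it ran from -1.96 to 1.31, and its mean over 12 libraries exceeded that of fibroblast-like cells by 1.77 ± 2.21, higher in 10 of 12 (two-sided exact permutation test p = 0.0205, adjusted p = 0.0752 over 11 tests), a difference past the threshold without the library labelled resolved 1 (2.19, adjusted p = 0.0161).

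Osteoblast-like, tenocyte-like, perivascular-like and chondrocyte-like cells were set against fibroblast-like cells. Among these, chondrocyte-like cells had the mean ratio furthest toward the decoy. Their difference from fibroblast-like cells was -3.46 ± 1.69, negative in 8 of 8 libraries (exact permutation p = 0.00781, the smallest that 8 libraries allow, adjusted p = 0.043). Lining-like exceeded sublining-like cells by 1.86 ± 1.58 in 11 of 12 libraries (exact permutation p = 0.000977, adjusted p = 0.0107). Since sublining-like cells had 0 Tnfsf11 UMIs and lining-like cells 9, this value rests on Tnfrsf11b and on the 0.5 added, and with thinned cells it was not past the threshold (1.08, adjusted p = 0.146). Between labels, 3 libraries against 3 cannot give a p below 0.1 and none of the 6 comparisons passed.

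**Figure D5:**
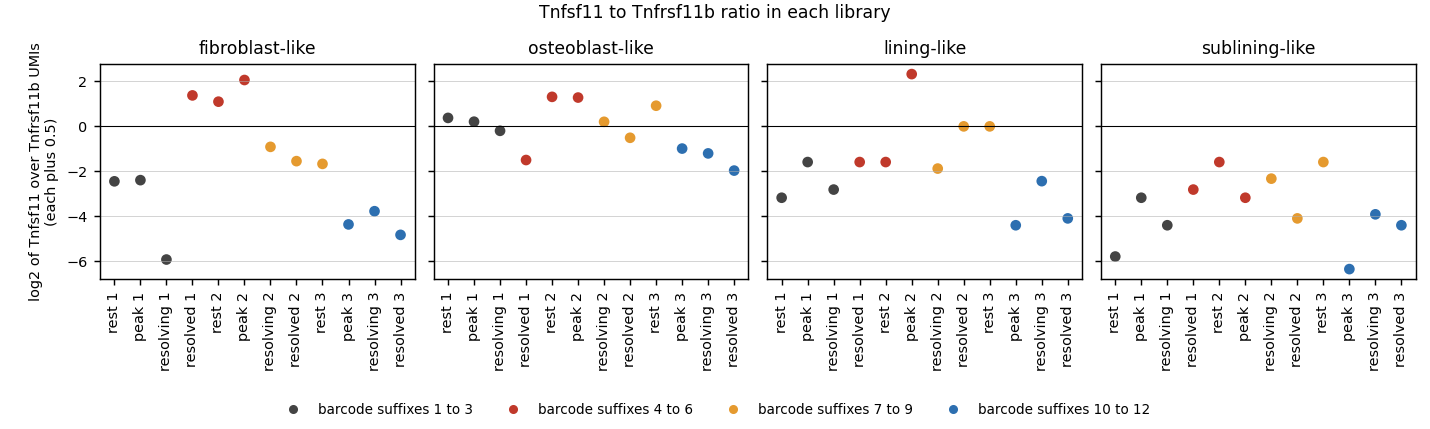
Log2 of Tnfsf11 over Tnfrsf11b UMIs, each plus 0.5, in each library in the order of the barcode suffix, for fibroblast-like, osteoblast-like, lining-like and sublining-like cells, coloured by suffix run. Only suffixes 4 to 6 lie above 0 in fibroblast-like cells, at 1.10 to 2.06, and the sublining-like points show the Tnfrsf11b count alone because Tnfsf11 was at 0.

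The study is about hexokinase 2, so the members were also compared between fibroblast-like cells with at least 1 Hk2 UMI (5453 cells) and those without (5958 cells) in the same libraries. Tnfsf11 was 0, 11.1 and 59.8 CPM in the lowest, median and highest library of positive cells and 0.375, 6.47 and 46 in negative cells, and the positive cells were the higher in 9 of 12 libraries. The difference was 0.55 on the log2 scale (SE 0.15, adjusted p = 0.00771), just over the fold limit, while 6.83% of 9862 genes were called, 4.17% as higher and 2.67% as lower. It fell below that limit without the library labelled peak 2 (0.46), resolved 1 (0.48) or rest 1 (0.45), and without the Cxcl5-led cluster its adjusted p was 0.0765 (0.51). Positive cells held more UMIs, 7049 per cell against 5768. With each cell thinned to 2000 UMIs and Hk2 status set on the thinned counts, Tnfsf11 did not pass the filter on low counts, so its difference was not tested at equal depth.

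The other members were not past the threshold between Hk2-positive and Hk2-negative cells at full depth, and all 3 were with thinned cells. Csf1 was higher in 9 of 12 libraries (139.9 ± 63.3 against 125 ± 53.8 CPM, log2 fold change 0.27, SE 0.07, adjusted p = 0.00706) and Il34 lower in 11 of 12 (13.9 ± 5.83 against 18.5 ± 7.84 CPM, -0.27, SE 0.09, adjusted p = 0.0344), both under the fold limit. Tnfrsf11b was higher in 6 libraries and lower in 6 (0.38, SE 0.16, adjusted p = 0.0821), and without the library labelled resolved 3 it reached 0.50 (adjusted p = 0.0171). With thinned cells the log2 differences were 0.60 (SE 0.09, adjusted p = 1.13e-05) for Csf1, -0.94 (SE 0.23, adjusted p = 0.00252) for Il34 and 0.50 (SE 0.15, adjusted p = 0.012) for Tnfrsf11b. Of 9 tested promoting ligands and enzymes 4 were higher in positive cells and 1 lower, beside 4.17% and 2.67% of all genes. Il6 (1.56), Ptgs2 (1.38), Lif (1.37) and Il11 (0.74) were higher, and the lower one, named after its value was seen, was Wnt5a (-0.68). Among the other listed genes the receptors Il17ra (1.09) and Osmr (0.90) were higher, and the restraining Wnt16 was lower (-1.17). The number of genes tested in those lists is not given here, so these single genes show no trend of a list.

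Across the 26 named clusters, the genes whose levels ran most like each member's were taken by Pearson's r of log2 levels over 7702 genes, as a description without a test, since clusters share libraries and depth. For Tnfsf11 they were Mmp13 (0.86), a collagenase, Tnn (0.83), Ssr3 (0.81), Chsy1 (0.80) and Camk4 (0.79), and for Tnfrsf11b Fam180a (0.79), Fibin (0.78), Omd (0.74), Chil1 (0.74) and Edil3 (0.73). Csf1 ran most like Plpp3 (0.92), Lamb2 (0.90), Tgfbr3 (0.90), Hdgfrp3 (0.89) and Kank2 (0.88), and Il34 like Daam2 (0.89), Pdgfrb (0.87), a receptor of mural cells and fibroblasts, Fam26e (0.84), Fam110b (0.84) and Bace2 (0.81). The members ran less like each other than like these genes, with r of 0.53 between Csf1 and Il34, 0.50 between Tnfrsf11b and Il34, 0.32 between Tnfsf11 and Tnfrsf11b and 0.07 between Tnfsf11 and Csf1.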

How the data were processed

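CD45-negative cells of mouse hind limb joints were profiled in 12 libraries, each a pool of 3 animals. The authors deposited per-library matrices of raw UMI counts, whole numbers per gene and cell made with Cell Ranger 2.1.1 on mm10, per the submitters' processing notes. Every library's deposited cells had the same median UMI count, and whether reads were brought to 1 depth before counting is not given in the sources used here.

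Cells with 500 to 5000 genes, at least 500 UMIs and no more UMIs than each library's upper limit were kept. Scrublet called 0.279% of cells, too few to have worked, so doublets were not removed, and an alternative left out the 6% with the highest scores per library. Clustering (scanpy 1.11.5; 2000 variable genes without the members, Hk2 and the listed context genes, 30 principal components, 20 neighbours, Leiden resolution 1) was followed by naming. A class needed 4 markers, each in 20% or more of the cells and raised by 1 or more on the log2 scale; fibroblasts needed 5 markers in 30% or more, and subsets 3 markers. UMI counts were summed per library and class (at least 10 cells) and tested with edgeR 4.0.16 (quasi-likelihood, TMM, filterByExpr), with the library as a block between classes. Labels were compared in 3 libraries each, with no block and, as an alternative, with the suffix run as a block. DESeq2 1.42.0 was an alternative. Simulated counts were used to check edgeR's test of osteoblast-like against fibroblast-like cells. In fibroblast-like cells they were used for suffixes 4 to 6 and for peak against rest, and they were also used for the interaction in suffixes 4 to 6. The other edgeR comparisons were not checked in this way. The count ratio was tested by exact permutation. Libraries are the replicates. In the stage and run tests without a block, p-values measure the spread between pools. With the library as a block, they measure how far the differences within a library vary from library to library. Thresholds, intervals (95% Wilson) and the floor of 3 counts are defined where used. Gene positions are from GENCODE M21 (27645 of 27998 identifiers matched), and promoters from RefSeq.

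The members, Hk2 where status is set, and up to 4 genes per list and comparison with the largest change past the threshold were named. Members and lists were chosen with earlier results of these data known. Leaving out the clusters led by Cxcl5 or Cytl1, the tenocyte-like cluster with C1qtnf3, and testing lining-like or sublining-like cells alone were alternatives chosen after seeing the data.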

Additional observations from a re-analysis of the deposited data

Results flagged for a closer look

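Suffix-run differences of 2 members were unequal in fibroblast-like and osteoblast-like cells by an interaction term in edgeR, fitted over all genes. For Tnfsf11, the difference from suffixes 1 to 3 in osteoblast-like cells minus that in fibroblast-like cells was -4.36 (log2) for suffixes 4 to 6 and -2.04 for suffixes 7 to 9. For Csf1 it was 1.46 for suffixes 4 to 6 and 1.25 for suffixes 7 to 9. With cells thinned to 2000 UMIs, Tnfsf11 in suffixes 4 to 6 was at -4.21 and past the threshold, and the other flagged values were not. Without the Cxcl5-led cluster, too, it alone was past the threshold. The runs are sets of libraries with adjacent barcode suffixes that cut across the labels. Beyond these alternatives, run, depth and cell makeup of the libraries cannot be told apart.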

How the results depend on the processing

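Direction was judged only where a value was past the threshold. Values past it in neither fit were therefore counted as kept, whatever their sign. A reversal is a change of sign where at least 1 of the compared values was past the threshold. Of the alternatives that left out 1 library, 1638 values of members were kept, 31 fell below the threshold and 11 passed it. Of the others, 1537 were kept, 57 fell below, 32 passed and 7 reversed. The reversals were Il34 in osteoblast-like against fibroblast-like cells at Leiden resolution 0.5 (1.02), Tnfrsf11b in proliferating cells at that resolution (0.26), with the highest doublet scores removed (0.20) and without the Cytl1-led cluster (0.22), and Tnfrsf11b in tenocyte-like cells under the same settings (4.31, 2.1 and 1.80). The cause was not tested, other than that leaving out the Cytl1-led cluster lowers Tnfrsf11b in the fibroblast-like sum by construction.

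Member calls between cell classes numbered 28, with 26 to 29 on leaving out 1 library and 24 to 30 under the other alternatives. For the lining-like and sublining-like subsets there were 7 calls (7 to 8 on leaving out 1 library), 1 at Leiden resolution 0.5, where no cluster was sublining-like, 1 with cells thinned to 2000 UMIs, 4 with the highest doublet scores removed and 4 without the Cytl1-led cluster. For Hk2 status there was 1 call (0 to 2), 3 with thinning, and 0 at Leiden resolution 0.5, without the library block, with total counts alone and without the Cxcl5-led cluster. For suffix runs in fibroblast-like cells there were 5 (4 to 5), 3 with thinning, 2 in lining-like cells alone, 1 in sublining-like cells alone and 2 without the Cxcl5-led cluster. For suffix runs in osteoblast-like cells there was 1 (1 to 1), 0 with doublet scores removed and 2 with no filter on low counts. For the interaction of run and class there were 4 (2 to 4), 2 with thinning and 1 without the Cxcl5-led cluster. For the ratio there were 2 (1 to 2, where a class left with 7 libraries cannot reach the p of 8), 0 with thinning and 4 without the Cxcl5-led cluster. Stages gave 0 calls of members, also on leaving out each library (0 to 0) and with the suffix run as a block, and with no filter on low counts 1 in osteoblast-like cells and 1 in the interaction.

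Counts over all genes moved more. Suffixes 4 to 6 in fibroblast-like cells gave 4020 called genes and 146 in sublining-like cells alone, suffixes 7 to 9 gave 2337 and 243, and suffixes 10 to 12 gave 183 and between 35 (without resolving 1) and 459 (no filter). In osteoblast-like cells suffixes 4 to 6 gave 59 (13 to 221), 7 to 9 gave 0 (0 to 113) and 10 to 12 gave 13 (1 to 138). The interaction gave 859 (165 to 1593) for suffixes 4 to 6, 299 (115 to 900) for 7 to 9 and 3 (0 to 107) for 10 to 12. Thinning lowered osteoblast-like calls from 3124 to 1914, chondrocyte-like from 5030 to 2488, perivascular-like from 4242 to 2785, lining-like from 2250 to 1188 and sublining-like from 1339 to 708. Stages gave up to 39 genes with no filter in osteoblast-like cells and 33 in the interaction.

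The replicate numbers of the labels did not pair all libraries: deviations of same-numbered libraries correlated at -0.54 to 0.68, over 0.1 in 11 of 18 pairs. Some same-numbered libraries share a suffix run, such as peak 2 and rest 2 (0.68), and others do not, such as resolved 1 and rest 1 (-0.54). Number and run therefore overlap in part. The replicate block gave 0 member calls in either class and changed no call. Adding fibroblast-marked clusters left unnamed was not run, since at the settings reported there were 0. Depth limits the small classes and Tnfsf11 in lining-like and sublining-like cells, which held 9 and 0 UMIs.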

Other observations

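Among osteoblast-like cells, Tnfrsf11b was seen less often in cells with a Tnfsf11 UMI than in those without. Among fibroblast-like cells the shares were close. Of 282 osteoblast-like cells with a Tnfsf11 UMI, 12 (4.26%) also had a Tnfrsf11b UMI, against 13.7% of those without, although the cells with Tnfsf11 were the deeper (median 6904 against 4999 UMIs). Of 650 fibroblast-like cells with Tnfsf11, 33 (5.08%) had Tnfrsf11b, against 5.69% of those without, at medians of 11113 and 5391 UMIs. Osteoblast-like cells with Tnfsf11 had a Csf1 UMI in 28.4% and an Il34 UMI in 14.2%, against 20.9% and 8.22% of those without. These are shares of cells pooled over libraries, given without a test, and cells of 1 library are not replicates.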
